A study of Mus musculus with 26 samples.

Results

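The change between 144h and 168h after aggregation was examined in gastruloids of one mouse line, clone 1 of those labelled Inv(CBS5-10). Gastruloids are made by aggregating embryonic stem cells, here of the mouse, and come to resemble the trunk and tail of an embryo as they lengthen. The 168h group held 1 library and the 144h group 2 libraries, so 3 of the 26 libraries of the series were compared, and the 168h library has no replicate check of its own. Both groups have the same genotype. They carry HoxB Del/Del(i9-13), which every line of the series carries, and in addition both Ins(CBS5-10) and Inv(CBS5-10), and all 3 libraries come from clone 1. The sources used here do not say what i9-13 and CBS stand for. The line is 1 clone, so nothing here separates its own properties from those of the genotype. Polyadenylated RNA was sequenced, with total counts of 26585855 at 168h, and 21921281 and 19942377 in replicates 1 and 2 at 144h. The 168h library and 144h replicate 1 share the library label ISML_third, whereas 144h replicate 2 is labelled ISML_second. The earlier levels below come from the ISML_third libraries of clone 1, of which there was 1 at 96h and 1 at 120h. Whether replicate libraries are from separate cultures is not stated in the labels, and p-values therefore reflect a spread among libraries that may be technical.

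In the embryonic trunk, progenitors at the tail end are kept by FGF and Wnt signals and give rise to spinal cord and to somites, the blocks that form muscle and skeleton. In the spinal cord, progenitors leave the cell cycle under proneural transcription factors, and the new neurons then make a neuronal cytoskeleton, extend axons and build synapses. Hox genes are switched on one after the other along this period, and RNA-binding proteins of the Lin28 family mark the early, immature state.

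The 168h library was set apart by genes of young neurons, which were higher. Etv4 and Etv5, which are targets of FGF, a regulator of developmental timing and a somite gene were lower. Dusp4, also of the FGF response, was called higher. A gene was called when edgeR gave an adjusted p under 0.05 and the 168h value lay on the same side of both 144h libraries. Of 17769 genes tested, 126 were called higher (0.709%) and 15 lower (0.0844%), together 141 (0.794%). Before adjustment, 2721 genes had p under 0.05. The median log2 fold change was 0.11 over all genes tested, 2.59 over those called higher and -1.37 over those called lower. Levels are given in CPM, library-scaled counts (counts per fixed library total, TMM), so they compare 1 gene between libraries and not different genes. A rule without a model, at least 2-fold in the same direction against each 144h library on the log2(CPM + 1) scale, took 305 genes as higher (2.14% of 14250 with at least 1 CPM in 1 of the 3 libraries) and 49 as lower (0.344%), together 354 (2.48%). Of the called genes, 84 of the 126 and 9 of the 15 also passed this rule.

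The number of calls depended on single libraries. Without 144h replicate 2 there were 20 genes called higher and 4 lower, of which 18 and 3 were also called with it. Without 144h replicate 1 there were 314 and 157, of which 28 and 13 were shared. Without 120h replicate 1 of the same clone, which helps to set the label term, there were 26 and 4. With no term for the library label there were 19 and 8, all of them among the 141. Within the ISML_third libraries alone 2 genes passed, Stmn2 higher and Fmod lower, and with the 3 compared libraries alone edgeR called none, with 262 genes at an unadjusted p under 0.05.

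The 144h libraries differed from each other more than the 168h library differed from either. The SD of the log2 differences over genes was 0.521 between 168h and 144h replicate 1 and 0.822 between 168h and 144h replicate 2, against 0.895 between the 144h replicates. Mitochondrial genes took 0.841% of counts at 168h and 0.998% in 144h replicate 1, but 0.0864% in 144h replicate 2, and between 0.587% and 1.51% in the other libraries of the series. The part of this difference in the results was not tested, and values of both 144h libraries are therefore given throughout. The fit held a term for the library label, which 168h shares with 144h replicate 1 but not replicate 2. Fitted fold changes could therefore lie near the difference from replicate 1. Ier2 had 18.8 CPM at 168h, against 18.8 and 161 CPM at 144h, and a fitted log2 fold change of -0.056. Lhx4 at 168h was 243 times replicate 1 and 3.63 times replicate 2, with 7.69 fitted. The fitted values and list medians below carry this limit.

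**Figure D1:**
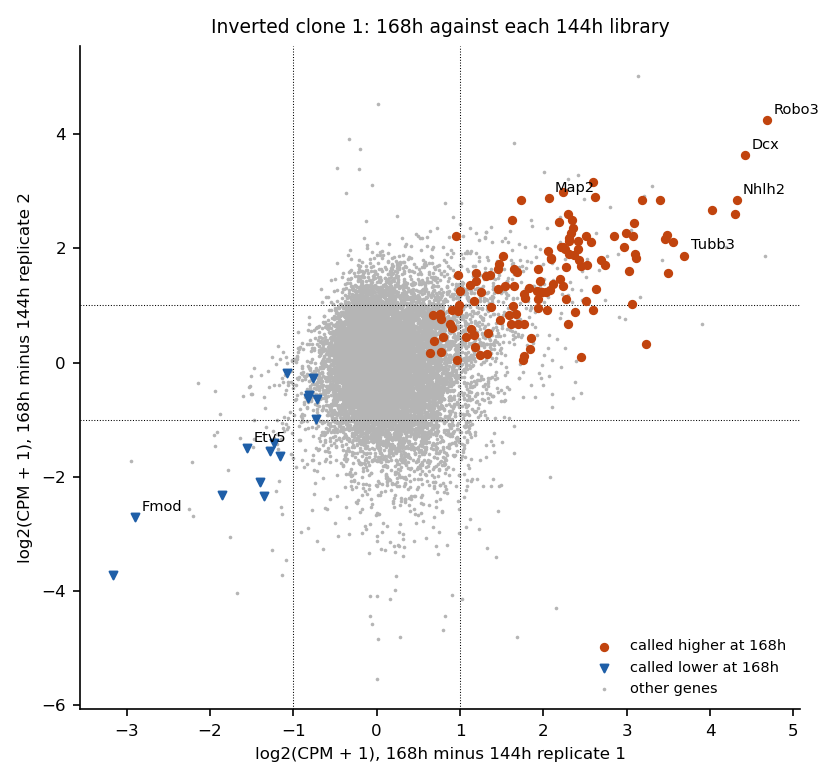
Differences of log2(CPM + 1) between the 168h library and 144h replicate 1 (horizontal) and between the 168h library and 144h replicate 2 (vertical), 1 point a gene with at least 1 CPM in 1 of the 3 libraries. Orange points are the called higher genes and blue triangles the called lower genes, and dotted lines mark 2-fold; the called genes lie in the upper right and lower left, with Robo3, Dcx and Nhlh2 at the upper right end.

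Of the 126 genes called higher, 100 were in no list. Among the lists, the one of the neuronal cytoskeleton and synapse had the most called members. Of 37 tested members of this list 10 were called higher, against 0.709% of all genes, and none lower; 30 of the 37 were above both 144h libraries, as were 30.2% of all tested genes (21.5% were below both), and the list's median log2 fold change was 2.27. Their summed level was 1174 CPM at 168h, against 223.1 and 467.2 CPM at 144h. In the other 4 lines at 144h the sum ran from 346.3 to 534.3 CPM. Dcx encodes doublecortin, a microtubule-binding protein of migrating young neurons. It had 95.7 CPM at 168h, against 3.50 and 6.77 CPM at 144h (log2 fold change 4.69 ± 0.75 SE, edgeR adjusted p = 0.0186). Tubb3, the neuronal beta-tubulin, had 164 CPM at 168h, against 11.8 and 43.9 CPM at 144h (adjusted p = 0.0430). Both 144h libraries thus lay far below the 168h library for both genes, although replicate 2 stood above replicate 1.

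Other called members had other parts in the neuron. Map2, a microtubule protein of dendrites, had 83.4 CPM at 168h, against 19.2 and 10.5 CPM at 144h (log2 fold change 2.23 ± 0.33 SE, edgeR adjusted p = 0.0137). Ina, an intermediate filament of neurons, had 68.3 CPM at 168h, against 5.19 and 13.7 CPM at 144h (3.29 ± 0.52 SE, adjusted p = 0.0186). L1cam, an adhesion molecule of growing axons, had 8.07 CPM at 168h, against 0.399 and 1.61 CPM at 144h (adjusted p = 0.0137). Map2 was higher in 144h replicate 1 than in replicate 2, and the other 2 genes were higher in replicate 2. Elavl4 and Celf3, RNA-binding proteins of neurons, Gap43, a growth cone protein, Snap25, part of the vesicle fusion machinery, and Stmn4, a regulator of microtubules, completed the 10, with log2 fold changes between 1.90 and 4.58. Without 144h replicate 2, or without 120h replicate 1, 3 of the 10 were called (Gap43, Ina and L1cam), and without 144h replicate 1 only Map2 was.

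Among genes of mature transmitter neurons, some stood low in all 3 libraries and others were higher at 168h. Slc12a5, a chloride transporter of neurons, was called higher, with 7.10 CPM at 168h, against 1.64 and 4.06 CPM at 144h. Glra1, a glycine receptor subunit, had 11.8 CPM at 168h, against 1.24 and 3.54 CPM at 144h, and was not called. Gad1, the enzyme that makes GABA, had 0.821 CPM at 168h, against 0.621 and 1.46 CPM at 144h. Slc32a1, the vesicular transporter of GABA, had 0.0714 CPM at 168h, against 0 and 0.416 CPM at 144h. Rbfox3, the nuclear protein used as a marker of mature neurons, had 3.00 CPM at 168h, against 0.665 and 1.82 CPM at 144h, and was not called. In such bulk samples fewer cells of a type and less RNA per cell cannot be told apart, nor can more of either.

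Along the ISML_third libraries most of these genes were low until 144h. Dcx had 0.203 CPM at 96h and 0.139 CPM at 120h, before the 3.50 CPM of 144h replicate 1 and the 95.7 CPM of 168h. Ina began higher, with 30.4 CPM at 96h, 6.37 at 120h and 5.19 in 144h replicate 1, before 68.3 at 168h. Of the 126 genes called higher, 117 had their highest value of the 4 stages at 168h (92.9%, against 36% of all genes tested). The call already requires the 168h value to be above 144h, so this share describes the genes and does not support their calls.

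**Figure D2:**
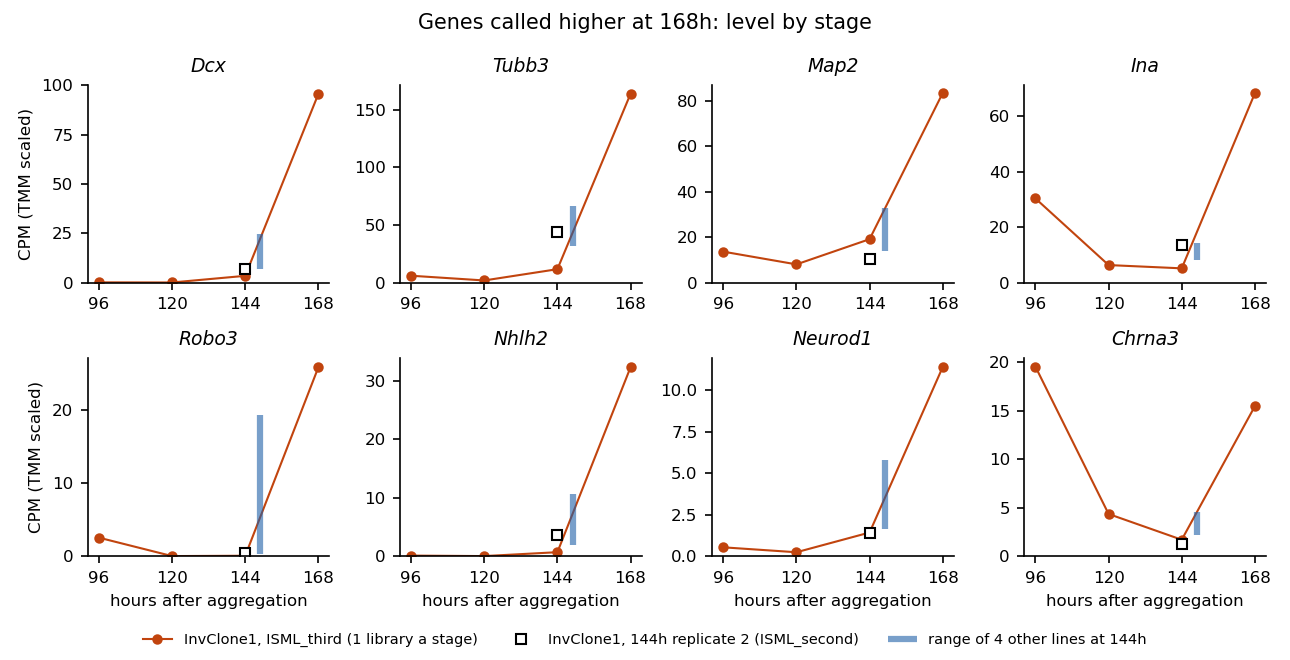
Level in CPM (vertical, linear, from 0) of 8 genes called higher at 168h, against hours after aggregation (horizontal). Orange points are the ISML_third libraries of clone 1, 1 a stage, the open square is 144h replicate 2, and the blue bar is the range of the 4 other lines at 144h; the 168h point lies above every 144h value for each gene, while Chrna3 was also high at 96h.

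Proneural genes and genes of early neurons formed the group that precedes these in neuron formation. Of 20 tested members 4 were called higher, against 0.709% of all genes tested, and none lower. Above both 144h libraries lay 16, against 30.2% of all tested genes, and the median log2 fold change was 1.78. Nhlh2, a helix-loop-helix factor of newly born neurons, had 32.3 CPM at 168h, against 0.665 and 3.64 CPM at 144h (log2 fold change 5.67 ± 0.86 SE, edgeR adjusted p = 0.0186). Myt1, a zinc finger factor of the same cells, had 25.8 CPM at 168h, against 0.355 and 3.38 CPM at 144h (adjusted p = 0.0137). Neurod1, a proneural factor of differentiating neurons, had 11.4 CPM at 168h, against 1.42 and 1.41 CPM at 144h (adjusted p = 0.0229). For Nhlh2 and Myt1 144h replicate 2 stood above replicate 1, and for Neurod1 the 144h libraries had nearly the same level.

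Insm1, a zinc finger factor that marks the exit of neural progenitors from division, had 31.7 CPM at 168h, against 2.84 and 5.0 CPM at 144h (log2 fold change 3.49 ± 0.71 SE, edgeR adjusted p = 0.0397). Without 144h replicate 2 only Myt1 of the 4 was called, the same gene as without 120h replicate 1, and without 144h replicate 1 none was. Neurod4, a further proneural factor, and Nhlh1, the paralog of Nhlh2, passed the 2-fold rule but not the test. Neurod4 had 77.2 CPM at 168h, against 14.9 and 7.39 CPM at 144h, and Nhlh1 had 40.1 CPM at 168h, against 4.92 and 5.21 CPM at 144h. The delta ligand Dll1, which young neurons use to signal to their neighbours, had 173 CPM at 168h, against 72.5 and 98.3 CPM at 144h (edgeR adjusted p = 0.168). Dll1 is listed here with genes of the presomitic mesoderm and segmentation clock, and it had 743 CPM at 96h and 118 CPM at 120h.

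Among transcription factors of spinal neuron classes 4 of 22 tested members were called higher, against 0.709% of all genes tested, and none lower. The median log2 fold change of the list was 1.95. Lhx4, a LIM factor of motor neurons and V2 interneurons, had 10.8 CPM at 168h, against 0.0444 and 2.97 CPM at 144h (edgeR adjusted p = 0.0137). Isl2, a LIM factor of motor neurons, had 2.28 CPM at 168h, against 0.0887 and 0.833 CPM at 144h (adjusted p = 0.0458). Lhx5 and Pax2, factors of dorsal and ventral interneurons, had 3.64 and 4.28 CPM at 168h. At 144h Lhx5 had 0.0887 and 0.312 CPM and Pax2 had 0.488 and 1.15 CPM. Isl2, Lhx5 and Pax2 were low at both stages, and their large fold changes rest on few reads at 144h. Lhx4 had 302 reads at 168h and 57 in 144h replicate 2, but 1 read in 144h replicate 1. Its level at 168h was 3.63 times that of 144h replicate 2. Without 144h replicate 2 or without 120h replicate 1 only Lhx4 was called, and without 144h replicate 1 none was. Lhx5 reached 6.43 CPM in another line at 144h, so for that gene the 168h value lay within the range of the 144h libraries of the series. Not all factors of the list lay above both 144h libraries. Pou4f1, a factor of sensory neurons, had 6.0 CPM at 168h, against 6.70 and 4.74 CPM at 144h, and Evx1, a factor of V0 interneurons, had 2.43 CPM at 168h, against 0.754 and 7.50 CPM at 144h.

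Genes of neural progenitors gave no call. Of 23 tested members 16 lay above both 144h libraries, against 30.2% of all tested genes, with a median log2 fold change of 1.14, and the summed level was 3316 CPM at 168h, against 1647 and 2875 CPM at 144h. The general progenitor genes differed little from 144h replicate 2. Vim, a filament of progenitors, had 746 CPM at 168h, against 356 and 740 CPM at 144h, and Nes, the filament nestin, had 460 CPM at 168h, against 241 and 639 CPM at 144h. Other members were further apart. Zic1, a zinc finger factor of the dorsal tube, had 43.1 CPM at 168h, against 3.10 and 11.7 CPM at 144h (edgeR adjusted p = 0.0661). Dbx1, a homeobox factor of p0 progenitors, had 205 CPM at 168h, against 50.3 and 19.5 CPM at 144h, Pou3f2, a POU factor of neural cells, had 228 CPM at 168h, against 60.5 and 54.5 CPM at 144h, and Fabp7, a lipid carrier of radial glia, had 55.5 CPM at 168h, against 12.7 and 10.0 CPM at 144h. None of these 4 passed the test. Among genes of dividing cells, Mki67, a protein of cycling cells, had 801 CPM at 168h, against 713 and 640 CPM at 144h (edgeR adjusted p = 0.990), and of 34 tested genes of replication and mitosis none was called.

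Receptors and ligands of axon guidance included the gene with the highest fitted fold change among those named. Robo3, the receptor that lets commissural axons cross the midline, had 25.8 CPM at 168h, against 0.0444 and 0.416 CPM at 144h, which is 112 times the 144h mean (log2 fold change 9.59 ± 1.14 SE, edgeR adjusted p = 0.0125). The gene lies on chromosome 9 at 37416045 to 37433246 (mm10). It was nearly silent in both 144h libraries of the clone, yet a different line reached 19.3 CPM at 144h, so the level at 144h varied widely over lines. With no term for the library label the fitted log2 fold change was 6.82 and the gene was not called, and 144h replicate 1 held 1 read of it. Dcc, the netrin receptor of the same axons, had 31.5 CPM at 168h, against 4.39 and 2.65 CPM at 144h (adjusted p = 0.0329), and its ligand gene Ntn1 had 309 CPM at 168h, against 299 and 349 CPM at 144h. Ephb2, an ephrin receptor of guided axons, had 218 CPM at 168h, against 96.8 and 155 CPM at 144h (1.20 ± 0.16 SE, adjusted p = 0.0125).

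These 3, all higher, were the called members among 25 tested on the list, while 0.709% of all genes tested were called higher. The list's median log2 fold change was 0.49. Robo3 and Ephb2 were called without 144h replicate 1 and without 144h replicate 2. They were also called without 120h replicate 1, which is not a separate check from leaving out 144h replicate 2. The related receptors Robo1 and Robo2, which repel axons from the midline, had 136 and 101 CPM at 168h. At 144h Robo1 had 94.2 and 68.1 CPM and Robo2 had 73.2 and 37.8 CPM, and neither was called. Sema3a, a secreted repellent, had 44.9 CPM at 168h, against 105 and 45.5 CPM at 144h.

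Of the 126 genes called higher, 100 are in none of the lists, and the ones described next were chosen after their values were seen. Among them were Chrna3, Chrna4, Chrna5 and Chrnb4, which encode subunits of the nicotinic acetylcholine receptor, the ion channel that acetylcholine opens. Other subunit genes are not given here, so these calls are no share of the family. Of all genes tested, 0.709% were called higher. Chrna5, Chrna3 and Chrnb4 are neighbours on chromosome 9, between 54980880 and 55048779 (mm10). Chrna3 had 15.5 CPM at 168h, against 1.69 and 1.20 CPM at 144h (log2 fold change 3.30 ± 0.61 SE, edgeR adjusted p = 0.0285). Chrnb4 had 10.6 CPM at 168h, against 1.55 and 1.09 CPM at 144h (adjusted p = 0.0256), and Chrna5 had 4.78 CPM at 168h, against 0.355 and 0.625 CPM at 144h (adjusted p = 0.0268). All 3 thus rose, while the gene next to Chrna5 did not pass. Psma4, a proteasome subunit, had 135 CPM at 168h, against 187 and 102 CPM at 144h (adjusted p = 0.351).

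The cluster had a second high point early in the culture. At 96h Chrna3 had 19.5 CPM and Chrnb4 had 40.7 CPM, and at 120h they had 4.34 and 7.06 CPM. The 96h level of both was thus above that of 168h. Chrna5 had 4.59 CPM at 96h and 1.06 CPM at 120h, so its 96h level was just below the 4.78 CPM of 168h. Of the 126 genes called higher 9 had a 96h value above their 168h value, Chrna3, Chrnb4 and L1cam among them, against 46.6% of all genes tested, though genes called for a high 168h value tend to give few such cases. Chrna4, a further subunit on chromosome 2, had 70.7 CPM at 168h, against 11.6 and 14.4 CPM at 144h (2.59 ± 0.41 SE, edgeR adjusted p = 0.0186), and at 96h it had 2.07 CPM. None of the 4 subunits was called without 144h replicate 1, without 144h replicate 2 or without 120h replicate 1.

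Further called genes work in the axon and at the synapse. Tubb2b, a beta-tubulin of developing neurons, had 602 CPM at 168h, against 252 and 256 CPM at 144h (log2 fold change 1.45 ± 0.26 SE, edgeR adjusted p = 0.0229), though other beta-tubulin genes are close in sequence and reads could be split between them. Crmp1, which carries semaphorin signals in the growth cone, had 83.0 CPM at 168h, against 11.6 and 24.7 CPM at 144h, and its relative Dpysl5 had 312 CPM at 168h, against 138 and 147 CPM at 144h. Kif5a, a motor of axonal transport, had 17.0 CPM at 168h, against 1.15 and 7.86 CPM at 144h. The splicing regulator of neuronal microexons Srrm4 had 41.4 CPM at 168h, against 8.16 and 9.37 CPM at 144h (2.56 ± 0.38 SE, adjusted p = 0.0137). In all of these the 168h library also lay above the other 4 lines at 144h. Dpysl5 and Srrm4 were called without either 144h replicate.

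The 12 named genes with the largest fitted rise, of which some belong to no list, included genes of neuronal signalling. Grm2, a glutamate receptor, had 4.60 CPM at 168h, against 0.0887 and 0.521 CPM at 144h (edgeR adjusted p = 0.0282). Ecel1, a membrane peptidase of motor neurons, had 4.82 CPM at 168h, against 0.0887 and 0.468 CPM at 144h, and Sncg, a synuclein of peripheral neurons, had 5.85 CPM at 168h, against 0.133 and 2.60 CPM at 144h. Replicate 1 at 144h held only a few reads of each.

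Genes that host microRNAs included several with higher values, and they too were chosen after their values were seen. MicroRNAs are short RNAs that pair with messenger RNAs through their seed, the bases 2 to 8. Libraries of polyadenylated RNA measure the host transcript and not the mature microRNA. Of 18 genes named for microRNAs with at least 1 CPM, 9 were at least 2-fold above both 144h libraries, against 2.14% of all genes at that level. None was at least 2-fold below, against 0.344%, and only Mir9-3hg was called. It had 4.14 CPM at 168h, against 0.0887 and 0.260 CPM at 144h (log2 fold change 5.12 ± 0.82 SE, edgeR adjusted p = 0.0186; not called without either 144h replicate). Some mature sequences of the hosts are shown to identify the microRNAs, as RefSeq gives them with GRCm38.p6 coordinates. The seed is in capitals. Mir100hg also holds the hairpin of let-7a-2, whose sequence is not printed. The miR-9 sequence lies in Mir9-3hg, let-7c and miR-99a lie in Mir99ahg, and miR-100 and miR-125b lie in Mir100hg, all on the plus strand.
miR-9-5p (chr7:79505279-79505301): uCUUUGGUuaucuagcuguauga
let-7c-5p (chr16:77599672-77599693): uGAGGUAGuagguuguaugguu
miR-99a-5p (chr16:77598940-77598961): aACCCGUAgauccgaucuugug
miR-100-5p (chr9:41531437-41531458): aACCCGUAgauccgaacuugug
miR-125b-5p (chr9:41581940-41581961): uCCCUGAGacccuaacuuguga

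Thus miR-99a and miR-100, from hosts on different chromosomes, share the seed ACCCGUA. The host of miR-99a and let-7c, Mir99ahg, had 5.17 CPM at 168h, against 0.887 and 0.468 CPM at 144h, and 0.139 CPM at 120h. Mir100hg, the host of miR-100, miR-125b and let-7a-2, had 22.1 CPM at 168h, against 5.37 and 3.07 CPM at 144h, and 2.63 CPM at 120h. The let-7 family acts against Lin28a and is itself held back by the Lin28a protein, and miR-9 is a microRNA of the nervous system. Neither Mir99ahg (edgeR adjusted p = 0.193) nor Mir100hg (adjusted p = 0.169) passed the test. Mir17hg, Mir181a-1hg, Mir219a-2 and Mir3064 passed the 2-fold rule as well and were not called. Of these, Mir17hg had 73.3 CPM at 168h, against 31.6 and 18.6 CPM at 144h. The hosts of miR-124, a microRNA of neurons, also stood above both 144h libraries and were not called. Mir124a-1hg had 14.2 CPM at 168h, against 0.532 and 0.781 CPM at 144h (adjusted p = 0.0672), and Mir124-2hg had 68.5 CPM at 168h, against 14.2 and 10.9 CPM at 144h (adjusted p = 0.364).

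Genes that were lower at 168h included targets of FGF signalling. Of 19 tested genes of the FGF response 2 were called lower, Etv4 and Etv5, against 0.0844% of all genes, and 1 higher, Dusp4, and the median log2 fold change was -0.34. Etv5, an ETS factor switched on by FGF, had 14.6 CPM at 168h, against 44.8 and 43.0 CPM at 144h (log2 fold change -1.68 ± 0.22 SE, edgeR adjusted p = 0.0125). Its relative Etv4 had 5.50 CPM at 168h, against 15.5 and 31.7 CPM at 144h (-1.64 ± 0.33 SE, adjusted p = 0.0399). Both continued a decline, since Etv5 had 175 CPM at 96h and 99.2 at 120h, and Etv4 112 at 96h and 49.9 at 120h. Dusp4, a phosphatase that damps FGF signalling through MAP kinases, had 70.5 CPM at 168h, against 40.0 and 51.1 CPM at 144h (adjusted p = 0.0393). Other targets did not pass: Dusp6 had 45.8 CPM at 168h, against 54.9 and 69.7 CPM at 144h, and Spry2 had 27.6 CPM at 168h, against 37.7 and 59.4 CPM at 144h. Etv5 was called without either 144h replicate and Etv4 was not called without 144h replicate 2. Dusp4 was not called with 144h replicate 1 or 2 or 120h replicate 1 or 2 left out, or with no library term.

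Lin28a, the RNA-binding protein that blocks the maturation of let-7, was 1 of 12 genes of trunk-to-tail timing and the only one called. It had 190 CPM at 168h, against 447 and 505 CPM at 144h (log2 fold change -1.37 ± 0.27 SE, edgeR adjusted p = 0.0393; not called without 144h replicate 2). Its earlier levels were 1012 CPM at 96h and 683 at 120h, so it stood lower at each later stage. Of the 15 genes called lower, 10 did so over the 4 stages (66.7%, against 8.58% of all genes tested), and 14 had their lowest value at 168h (93.3%, against 27.0% of all genes tested). The call requires the 168h value to be below 144h, so these shares describe the genes only. Its paralog Lin28b had 133 CPM at 168h, against 189 and 105 CPM at 144h, and Trim71, a let-7 target, had 159 CPM at 168h, against 242 and 267 CPM at 144h (adjusted p = 0.0611).

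The caudal genes Cdx1, Cdx2 and Cdx4, which activate posterior Hox genes in tail progenitors, passed the 2-fold rule without passing the test. Cdx2 had 16.1 CPM at 168h, against 36.6 and 106 CPM at 144h, and Cdx4 had 2.39 CPM at 168h, against 12 and 8.38 CPM at 144h. Nkx1-2, a homeobox factor of axial progenitors, had 7.67 CPM at 168h, against 40.1 and 50.2 CPM at 144h (edgeR adjusted p = 0.142). It had 239 CPM at 96h and 193 at 120h, so both 144h libraries and the 168h library lay on a decline. T, the mesoderm factor Brachyury, had 10.9 CPM at 168h, against 10.1 and 23.9 CPM at 144h. None of the 13 tailbud genes was called, with 7 below both 144h libraries (21.5% of all tested genes) and 3 above both (30.2% of all tested genes).

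Of 16 somite genes 11 lay below both 144h libraries, against 21.5% of all tested genes, and 2 above both, against 30.2%, with a median log2 fold change of -0.85. Meox1, a homeobox factor of the somite, was called (101 CPM at 168h, against 246 and 298 CPM at 144h, log2 fold change -1.35 ± 0.23 SE, edgeR adjusted p = 0.0216). It was not called without 144h replicate 2. Pax1, a sclerotome factor, had 27.0 CPM at 168h, against 55.3 and 88.0 CPM at 144h, and Tcf15, a factor of the epithelial somite, had 5.71 CPM at 168h, against 14.9 and 64.2 CPM at 144h. Neither passed the test. Smoc1, a secreted matrix protein, had 73.4 CPM at 168h, against 165 and 231 CPM at 144h (-1.29 ± 0.22 SE, adjusted p = 0.0227).

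Fmod, which encodes fibromodulin, a collagen-binding proteoglycan of tendon, had the largest fitted fall among the named genes. It had 0.428 CPM at 168h, against 9.63 and 8.28 CPM at 144h (log2 fold change -4.51 ± 0.54 SE, edgeR adjusted p = 0.0125). The 144h libraries of the other lines ran from 6.95 to 14.3 CPM, so the low level was seen in no 144h library. In clone 1 it had 0 CPM at 96h and 31.9 at 120h. It was called in 10 of the 12 other fits, more than any other gene, and within the ISML_third libraries the log2 fold change was -4.52 ± 0.43 SE (adjusted p = 0.0370). Other genes of the connective tissue matrix list differed from it. Col1a1, a collagen chain, had 6.39 CPM at 168h, against 2.57 and 27.4 CPM at 144h, and Lum, a proteoglycan related to Fmod, had 8.56 CPM at 168h, against 4.66 and 5.41 CPM at 144h.

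A pair of genes called lower falls outside the rule for named genes and was named after its values were seen. Dmgdh, a mitochondrial enzyme of choline breakdown, had 0.0357 CPM at 168h, which is 1 read, against 0.710 and 1.04 CPM at 144h (edgeR adjusted p = 0.0216). The predicted gene Gm45889 had 2.85 CPM at 168h, against 33.4 and 50 CPM at 144h (log2 fold change -3.96 ± 0.76 SE, edgeR adjusted p = 0.0441). The other genes called lower had diverse functions. Epha1, an ephrin receptor of epithelia, had 4.03 CPM at 168h, against 12.3 and 20.4 CPM at 144h, and had been at 141 CPM at 96h. Sulf1, an enzyme that trims sulfate groups from heparan sulfate, had 65.8 CPM at 168h, against 117 and 101 CPM at 144h, and Gcnt1, a glycosyltransferase, had 6.67 CPM at 168h, against 15.1 and 7.76 CPM at 144h. Heatr1 and Dhx33, which act in ribosome production in the nucleolus, had 143 and 56.8 CPM at 168h. At 144h Heatr1 had 243 and 174 CPM and Dhx33 had 101 and 84.3 CPM. Polr1b, a subunit of RNA polymerase I named after its value was seen, had 63.1 CPM at 168h, against 104 and 98.1 CPM at 144h (log2 fold change -0.77 ± 0.15 SE, edgeR adjusted p = 0.0389). The ribosomal proteins themselves gave no call among 35, with a median log2 fold change of -0.09.

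**Figure D3:**
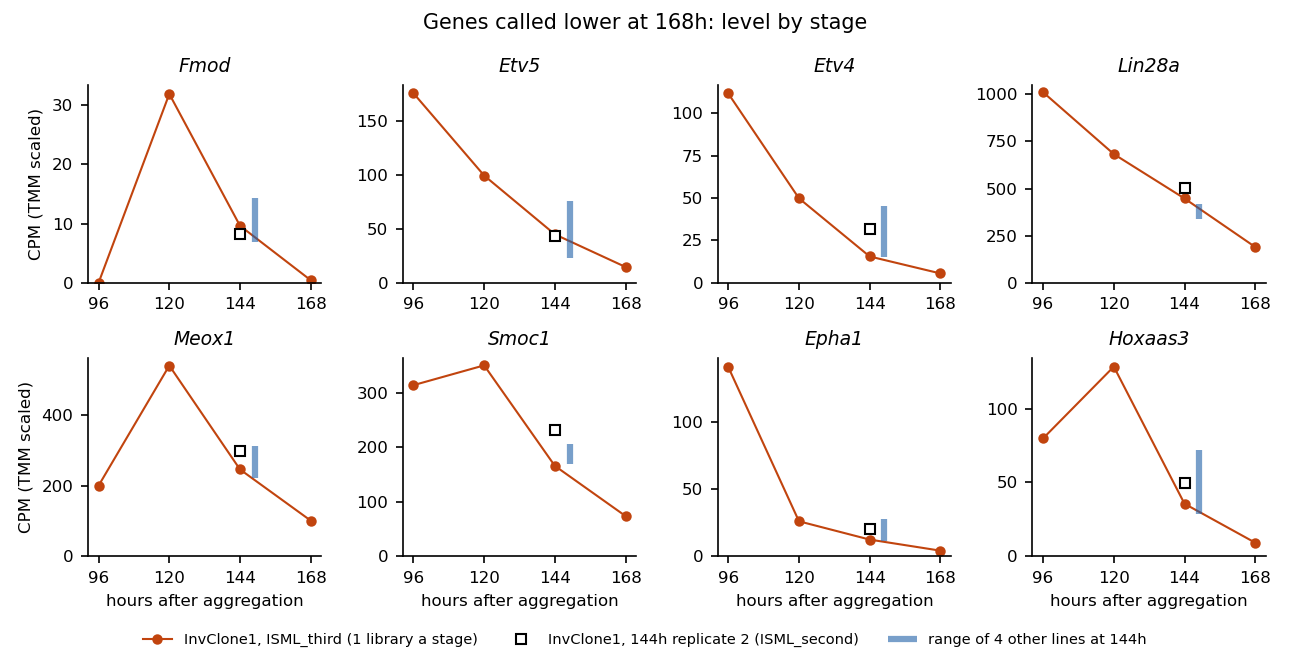
Level in CPM (vertical, linear, from 0) of 8 genes called lower at 168h, against hours after aggregation (horizontal), with symbols as in the plot of higher genes by stage. The 168h point lies below both 144h values of clone 1 and below the range of the 4 other lines for each gene, and both 144h values were below the 120h value in all 8.

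Among Hox genes, the genes of the HoxB cluster itself gave no call. With edgeR none of the 10 passed, 2 lay above both 144h libraries (Hoxb3 and Hoxb8), against 30.2% of all tested genes, and 1 below both (Hoxb1), against 21.5%. Hoxb3, which patterns the hindbrain and neck, had 63.3 CPM at 168h, against 30.3 and 25 CPM at 144h (log2 fold change 1.32 ± 0.32 SE, adjusted p = 0.0864). It was called with DESeq2, with no filter on low counts and without 144h replicate 1. The highest 144h value of the other lines was 60.8 CPM. Hoxb1, the gene at the 3' end, had 7.74 CPM at 168h, against 14.8 and 11.7 CPM at 144h (adjusted p = 0.527), and had been at 96.0 CPM at 96h.

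Hoxb13, which restrains axial extension and is the gene named in the title of the series, lies on chromosome 11 at 96194316 to 96197447 (mm10). It had 0.642 CPM at 168h, against 0.222 and 0.885 CPM at 144h (log2 fold change 0.99 ± 0.90 SE, edgeR adjusted p = 0.649). The 168h value lay between the 144h values, and at 96h and 120h the clone had 0.162 and 0.323 CPM. The other lines ran from 0.381 to 16 CPM at 144h. Hoxb9, a gene of the trunk, had 314 CPM at 168h, against 326 and 206 CPM at 144h. Hoxb8 had 36.2 CPM at 168h, against 24.9 and 34.1 CPM at 144h, so it lay just above the higher 144h library (edgeR adjusted p = 0.524). Hoxb2, Hoxb4, Hoxb5, Hoxb6 and Hoxb7 had values between 4.82 and 12 CPM at 168h, each between those of the 144h libraries. The direction of Hoxb2, Hoxb4, Hoxb7, Hoxb9 and Hoxb13 changed with the fit.

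In the other clusters the called genes were Hoxd3 and Hoxd4, 2 of 18 tested genes of groups 1 to 9. Both were higher, as were 0.709% of all genes tested. Hoxd4 had 104 CPM at 168h, against 32.1 and 57.2 CPM at 144h (log2 fold change 1.62 ± 0.33 SE, edgeR adjusted p = 0.0413). Hoxd3 had 69.6 CPM at 168h, against 24.3 and 40.9 CPM at 144h (adjusted p = 0.0282). The span of Hoxd3 in the deposited table, 74711927 to 74748271 on chromosome 2 (mm10), holds that of Hoxd4, so their reads may not be independent. Neither was called without 144h replicate 1, without 144h replicate 2 or without 120h replicate 1. Hoxaas3, a transcript antisense to HoxA genes, had 9.06 CPM at 168h, against 35.5 and 49.2 CPM at 144h (adjusted p = 0.0282). Its sense partners cannot be told apart from it where the counting ignored strand, and the sources used here do not give the strand setting.

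Posterior genes of groups 10 to 13 gave no call among 7 tested, and 5 lay above both 144h libraries, against 30.2% of all tested genes. Hoxc10 had 50.2 CPM at 168h, against 37.6 and 34.7 CPM at 144h, and Hoxa10 had 28.2 CPM at 168h, against 13.0 and 14.9 CPM at 144h. Hoxa11 passed the 2-fold rule with 5.75 CPM at 168h, against 1.29 and 1.98 CPM at 144h. The summed level of the group was 97.5 CPM at 168h, against 57.5 and 63.2 CPM at 144h, and 0.528 and 15.3 CPM at 96h and 120h.

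Skeletal muscle genes were low in all 3 libraries, and 1 of 22 tested members was called higher, against 0.709% of all genes tested. Myh3, the embryonic myosin heavy chain, had 11.2 CPM at 168h, against 0.444 and 1.61 CPM at 144h (log2 fold change 4.62 ± 0.78 SE, edgeR adjusted p = 0.0209). It was not called without 144h replicate 1 or without 144h replicate 2. Myog, the factor that starts muscle fibre formation, had 2.96 CPM at 168h, against 0.133 and 0.156 CPM at 144h (adjusted p = 0.131), and Mylpf, a fast myosin light chain, had 7.60 CPM at 168h, against 2.53 and 3.02 CPM at 144h. Acta1 and Tnnc2, actin and troponin of skeletal muscle, also passed the 2-fold rule and not the test. Pax3, a factor of the muscle progenitor, had 21.1 CPM at 168h, against 37.7 and 16.6 CPM at 144h.

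Pluripotency and germ cell genes had the lowest median of all lists, a log2 fold change of -2.52, with 18 of 22 tested members below both 144h libraries, against 21.5% of all tested genes, and none called. Pou5f1, the stem cell factor Oct4, had 1.2 CPM at 168h, against 9.0 and 13.0 CPM at 144h (edgeR adjusted p = 0.365). Dppa5a, a gene of embryonic stem cells, had 2.89 CPM at 168h, against 29.0 and 11.8 CPM at 144h. The other lines had 0.695 to 11.3 CPM of Dppa5a at 144h, so the 168h value was within their range.

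Genes of glycolysis and of the response to low oxygen were above both 144h libraries in 22 of 33 tested members, against 30.2% of all tested genes, and below both in none, against 21.5%. Their median log2 fold change was 0.72 and none was called. The summed level was 15240 CPM at 168h, against 10900 and 18250 CPM at 144h, so 144h replicate 2 had the highest sum. Of these, 7 passed the 2-fold rule. Bnip3, a mitochondrial protein induced in low oxygen, had 129 CPM at 168h, against 32.3 and 31.6 CPM at 144h (log2 fold change 2.00 ± 0.54 SE, edgeR adjusted p = 0.128). Pdk1, the kinase that turns pyruvate away from mitochondria, had 217 CPM at 168h, against 99.0 and 102 CPM at 144h, and Ero1l, an oxidase of protein folding, had 146 CPM at 168h, against 56.9 and 41.4 CPM at 144h. In these genes the 144h replicates lay close together and the 168h library stood apart. Among enzymes of the main glycolytic path, Gapdh had 2526 CPM at 168h, against 2244 and 2228 CPM at 144h, and Pkm, the pyruvate kinase, had 3110 CPM at 168h, against 2243 and 5567 CPM at 144h.

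The core letters of the element that hypoxia-inducible factors bind, ACGTG, were searched on both strands in the 250 bases before the start site, in RefSeq promoters of GRCm38.p6. They occurred in 14 of the 31 list members with a promoter in the table (45.2%), against 21.5% of the 12050 promoters of tested genes. Of the 7 members past the 2-fold rule, 5 had a promoter in the table and 3 held the letters. The promoter of Bnip3, the member with the largest difference by that rule, is printed 5' to 3' with the match in capitals. The match reads CACGTG, which is the same on both strands, so the matches on the 2 strands overlap.
Bnip3 promoter (chr7:138909507-138909756, minus strand): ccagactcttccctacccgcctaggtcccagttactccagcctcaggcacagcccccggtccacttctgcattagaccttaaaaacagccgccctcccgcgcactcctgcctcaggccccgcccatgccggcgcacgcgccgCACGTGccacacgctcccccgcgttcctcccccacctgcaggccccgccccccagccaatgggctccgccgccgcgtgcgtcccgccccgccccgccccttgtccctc
A match of letters shows no binding, and oxygen was not measured here.

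Markers of other tissues differed mainly between the 144h replicates. The cardiac and smooth muscle list summed to 54.4 CPM at 168h, against 22.8 and 412 CPM at 144h, and Tnnt2, cardiac troponin, had 3.60 CPM at 168h, against 1.64 and 117 CPM at 144h. The endothelial list summed to 191 CPM at 168h, against 143 and 434 CPM at 144h, and the gut endoderm list to 220 CPM at 168h, against 229 and 762 CPM at 144h. In each of the 3 lists 144h replicate 2 stood far above both the 168h library and 144h replicate 1, and none of the members was called. The blood list summed to 7.32 CPM at 168h, against 7.50 and 18.6 CPM at 144h, and Lmo2, a factor also of endothelium, had 3.35 CPM at 168h, against 3.99 and 11.2 CPM at 144h. The 6 globin genes of the list were at 0 in all 3 libraries, and Sox10, a defining gene of neural crest, had 0.285 CPM at 168h, against 0.0444 and 0.468 CPM at 144h.

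**Figure D4:**
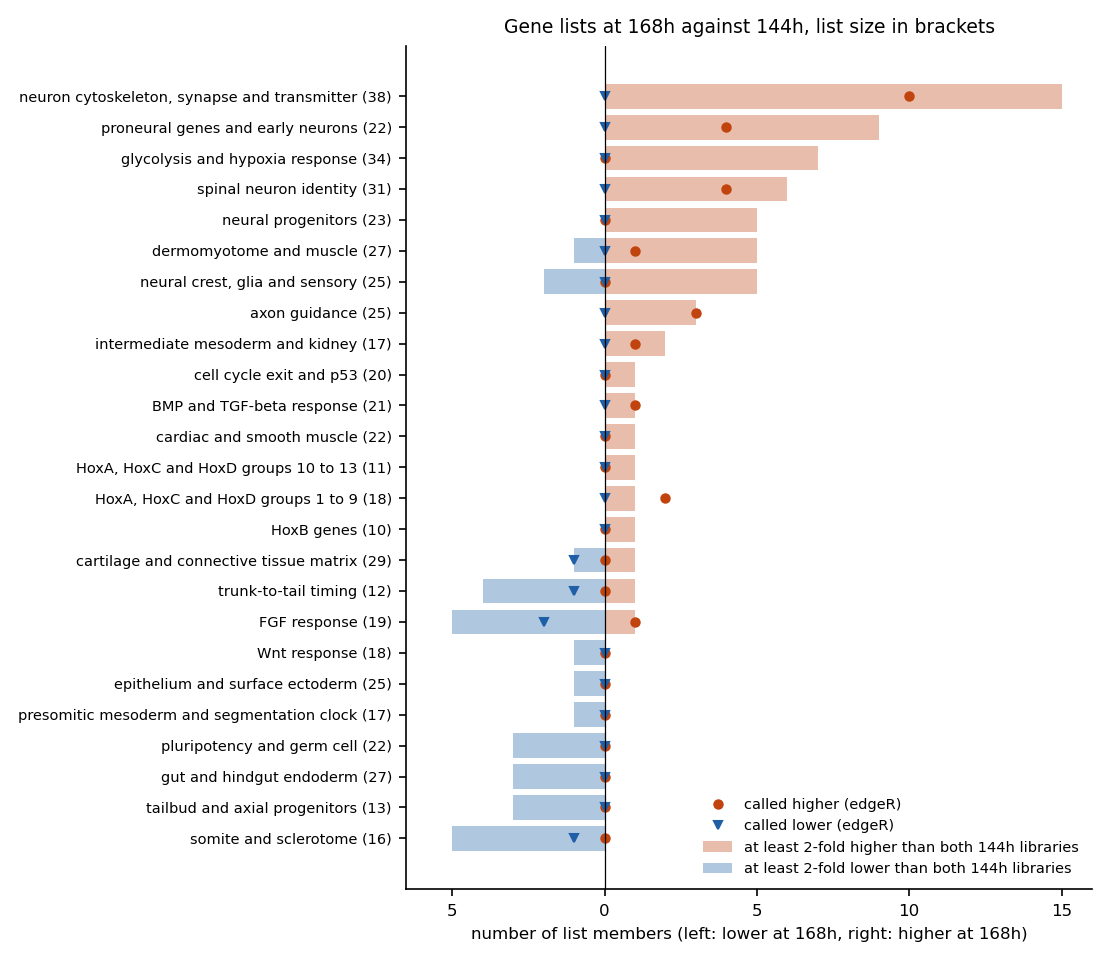
Number of members of each gene list (rows, list size in brackets) that were at least 2-fold higher (orange bars, right) or lower (blue bars, left) at 168h than in both 144h libraries, with edgeR calls as points. Lists with no member past the 2-fold rule are left out; the neuron list has the longest bar with 15 members, and the somite and FGF lists have 5 members each on the lower side.

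Among all genes tested 0.709% were called higher and 0.0844% lower. Over the 41 lists, which may share members, 26 of the 723 distinct tested genes were called higher and 5 lower. Without 144h replicate 2 these counts were 8 and 2, and without 144h replicate 1 they were 17 and 16. The lists of retinoic acid, imprinted growth, heat shock, cholesterol synthesis, CTCF and cohesin, and Polycomb had no call. Among them Peg3, an imprinted zinc finger gene, had 1828 CPM at 168h, against 2824 and 4392 CPM at 144h (edgeR adjusted p = 0.245), and Rad21, a cohesin subunit, had 542 CPM at 168h, against 570 and 330 CPM at 144h. Id4, an inhibitor of helix-loop-helix factors, was the one call on the BMP and TGF-beta list, with 17.0 CPM at 168h, against 3.64 and 5.67 CPM at 144h (adjusted p = 0.0285). It was not called without 144h replicate 1, without 144h replicate 2, without 120h replicate 1 or with no library term.

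Of the genes called higher, 124 of 126 lay above all 6 libraries of the series at 144h, which come from 5 lines, while 21.0% of all tested genes did. All 15 genes called lower lay below all 6, against 13.5% of all tested genes. Of the 6 libraries, 2 are those of clone 1 that the call itself uses, and the other 4 entered the fit, so these counts describe the called genes and do not support their calls.

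**Figure D5:**
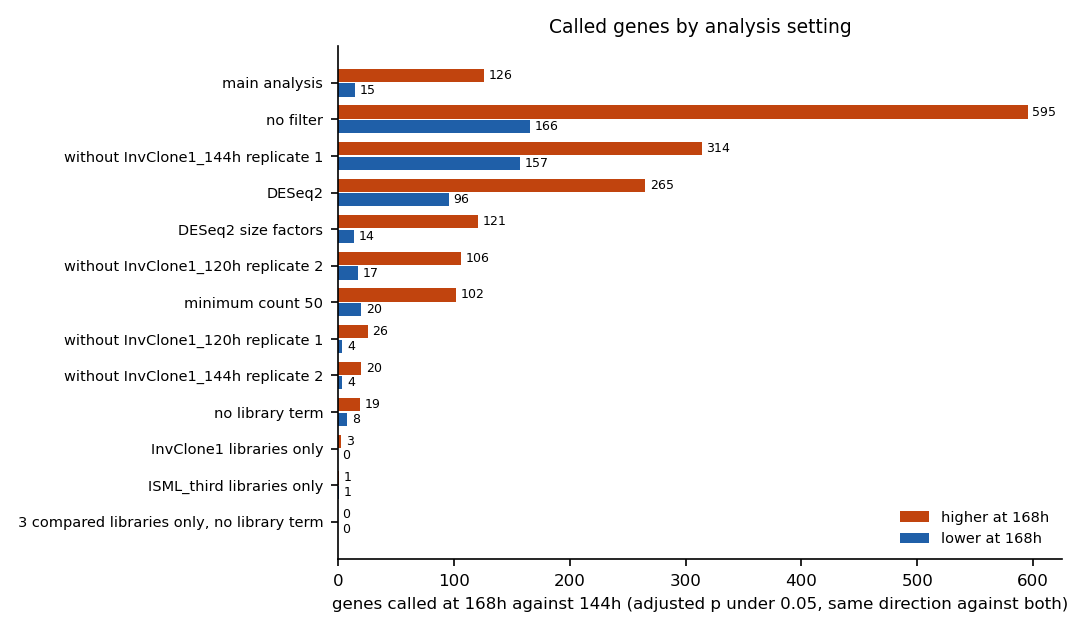
Number of genes called (horizontal) higher (orange) and lower (blue) at 168h in the main analysis, at the top, and in 12 other fits (rows). Counts run from 0 with the 3 compared libraries alone to 595 higher and 166 lower with no filter on low counts.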

How the data were processed

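The authors deposited raw counts for 55141 genes, and FPKM values, used here for gene positions only. The submitters' processing notes name STAR 2.7.10a, Cufflinks 2.2.1 and cutadapt 1.18, with the build mm10. The sources used here do not give the strand setting of the counting. A further 8 columns matched no sample and were not used.

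The test was edgeR's quasi-likelihood test (edgeR 4.0.16, R 4.3.3) with TMM factors, robust fitting, a minimum count of 10 and Benjamini-Hochberg adjustment over 17769 genes at 0.05. The fit held all 26 libraries in 15 groups, with the library label as a term and 8 residual degrees of freedom. The lone 168h library was assumed to vary like the replicated groups. Calls needed the same direction against both 144h libraries, which removed 8 of 149. The 3 compared libraries differed pairwise by 46.6 to 200 in chi-square per degree of freedom, so each was counted as 1 sample. Genes were named by rule: the HoxB genes, the 12 higher and 12 lower with the largest change (mean of at least 1 CPM, no predicted gene models), up to 4 called members of each of 41 lists, or the 2 highest in lists with none. Other genes were named after their values were seen. The lists, the comparison and the rules were chosen with earlier results of these data known. Alternatives included DESeq2 1.42.0. Total counts per library ran from 18746411 to 37716547, and 3 counts correspond to 0.107 CPM at 168h and 0.133 and 0.156 CPM at 144h, for counting error only. The script was tested on simulated data. Some genes are not reported here.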

Additional observations from a re-analysis of the deposited data

How the results depend on the processing

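The main analysis called 141 genes, 126 higher and 15 lower. There were 361 (265 and 96) with DESeq2, 761 (595 and 166) with no filter, 27 (19 and 8) with no library term, 3 (3 and 0) with libraries of clone 1 only, 0 with the 3 compared libraries only and 2 (1 and 1) with ISML_third libraries only. Leaving out 1 library of clone 1 at a time gave 24 to 471 calls, 20 to 314 higher and 4 to 157 lower. The libraries left out were 144h replicates 1 and 2 and 120h replicates 1 and 2, and no other library of clone 1 was left out singly. Leaving out 120h replicate 2 was chosen after the data were seen. List members called higher numbered 26, against 111 with no filter, 5 with no library term, 2 in clone 1, 0 in the 3 libraries, 1 in ISML_third and 8 to 22 when 1 library was left out. Members called lower numbered 5, against 19 with DESeq2, 43 with no filter, 3 with no library term, 0, 0 and 1 in the same 3 subsets and 2 to 16 when 1 library was left out. With DESeq2 size factors the count was 135, and with a minimum count of 50 it was 122.

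Of the HoxB genes 0 were called, and 1, Hoxb3, with DESeq2, with no filter and without 144h replicate 1. Directions turned with no library term for Hoxb2 (-0.37), Hoxb4 (-0.40), Hoxb7 (-0.16) and Hoxb9 (0.24), with the 3 libraries only for Hoxb2 (-0.42), Hoxb4 (-0.45), Hoxb7 (-0.21) and Hoxb9 (0.19), and without 144h replicate 1 for Hoxb4 (-0.23), Hoxb7 (-0.65) and Hoxb13 (-0.070). With 144h replicate 2, 120h replicate 1 or 120h replicate 2 left out instead, these 3 reached 0.66, 0.37 and 1.51. The cause was not tested.

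The 2-fold rule took 305 genes as higher and 49 as lower. At 1.5-fold it took 786 and 166, at 4-fold 47 and 4, and with a pseudocount of 5 CPM 122 and 18. Against a single 144h library it took 791 to 1255 as higher and 90 to 1453 as lower. Of 37 named genes that were called, all 37 passed with DESeq2 size factors and with no filter, 31 with DESeq2, 12 with no library term, 2 in clone 1, 1 in ISML_third, 0 in the 3 libraries, 13 without 144h replicate 1 and 9 without 144h replicate 2. No paired analysis was possible because the groups share only replicate number 1. With 1 library at 168h, depth is not the limit for genes above a few CPM, while the spread at that stage was not measured.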
